A study of Rattus norvegicus with 8 samples.

Results

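The cell cycle genes described here are 10 genes of cell division and its control. They are the D cyclins Ccnd1, Ccnd2 and Ccnd3, their kinase Cdk4, the inhibitors Cdkn1a and Cdkn1b, the replication factor Pcna, and the mitotic genes Top2a, Cdk1 and Ccnb1. They were chosen by symbol: every probe set whose only gene symbol was 1 of the 10 was taken, which gave 23 probe sets of the 8799 on the array, and 10 of the 4736 genes that a probe set named alone. The samples were medial collateral ligaments of rats (Rattus norvegicus), harvested at 3 weeks, and their total RNA was read on 8 arrays of 1 colour, with 2 arrays to a group and 4 groups. Loaded control ligaments came from rats given sham surgery, with the hindlimbs left loaded. Loaded healing ligaments had been disrupted surgically on both sides. Unloaded control ligaments came from rats kept off their hindlimbs by tail suspension, without sham surgery. Unloaded healing ligaments had been disrupted and the rats were suspended from 24 h after surgery. Strain, age and sex are not in the labels used here. Whether a group's 2 arrays stand for separate animals, pools or repeats is not in the labels. Each p-value therefore measures only a spread between arrays within groups, which the test estimated over all 4 groups together. The question for these genes is whether the scar at 3 weeks read differently from uninjured ligament in its cell cycle genes, and whether unloading altered that.

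A cell that enters division makes D cyclins, which bind Cdk4 and start the release of the brake held by the retinoblastoma protein. Cdkn1a (p21) and Cdkn1b (p27) bind cyclin and kinase complexes and hold the cell back. Pcna is the sliding clamp of DNA replication, Top2a untangles replicated chromosomes, and Cdk1 with cyclin B1 (Ccnb1) drives entry into mitosis. After a ligament is torn, fibroblasts and other cells divide in the scar in the early weeks and then give way to matrix remodelling. Much of cyclin control is at the level of protein, which these arrays do not measure.

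Values are signal intensities as deposited, which had been scaled so that the trimmed mean was 500.3 to 500.6 on every array; array medians ran from 238.7 to 315.9. Differences are on the log2(signal + 45.8) scale, which understates those of dim probe sets. Each was tested with limma on the 5244 probe sets left after the lowest 40% by mean were removed, with Benjamini-Hochberg adjustment over all 5244 and a threshold of 0.05. The unloaded control arrays stood apart: they correlated at 0.492 to 0.608 with the remaining arrays, which correlated at 0.761 to 0.872 among themselves. They also had a low summed signal over 9 ligament fibroblast genes, 2873 and 2500.2, against 47995 to 123889 on the other arrays. Col1a1 M27207mRNA_s_at carried most of that sum: it read 699 and 763, against 34753 to 84666 on the others. Not every entry was low: Fmod rc_AI111481_s_at read 579.5 and 643, its highest values. Comp read 137 and 302, overlapping 223 and 361 in loaded healing. The beta-actin 5′ to 3′ signal ratio of the unloaded control arrays was 0.964 and 0.634, against 0.237 to 0.529 on the others. Their 99th percentile of signal was 5494 and 5584, against 9218 to 11289. The part of these differences in any comparison with the unloaded control group was not tested, and its rats also lacked sham surgery. The 3′ beta-actin signal was low on the loaded healing arrays too, at 1353 and 1597, beside 1284 and 1494 on unloaded control. It was 4393 to 5235 on the remaining arrays, and its part in comparisons with loaded healing was not tested.

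No probe set of the 10 genes passed the test in any of 6 comparisons. Of the 23, 19 probe sets of 9 genes were bright enough to test; the only Cdkn1b probe set, and 1 each of Ccnd3, Cdkn1a and Ccnb1, were below the filter. The injury comparison, loaded healing against loaded control, called 0 of 19, where 2.02% of all probe sets passed; at an unadjusted p under 0.05 it had 0 of 19 and 614 of 5244. The smallest adjusted p among the members there was 0.545 by limma. The median difference of the 19 was -0.24, beside -0.03 over all tested probe sets, with 6 higher and 13 lower. On scaling to the spike-in controls, which moved the median of all probe sets by 0.37, the split was 11 higher and 8 lower.

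**Figure D1:**
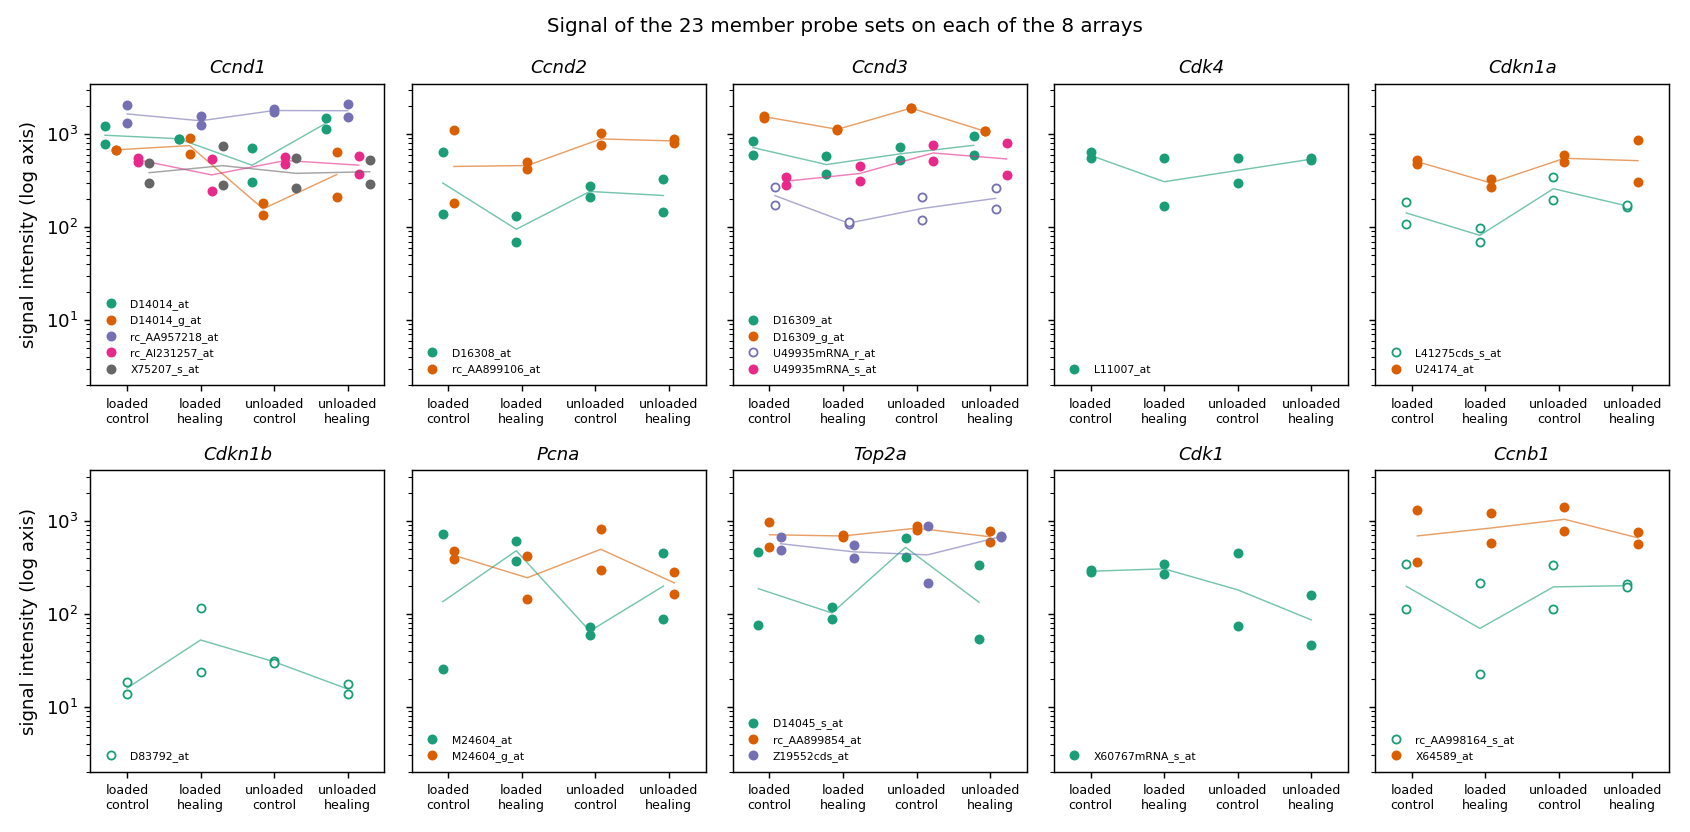
Signal of the 23 member probe sets (log axis) in the 4 groups, 1 panel a gene, 1 colour a probe set. Each point is 1 array, open points mark probe sets below the filter, and lines join the geometric means of the 2 arrays only to guide the eye. The 2 arrays of a group often lie as far apart as the groups, as for Pcna M24604_at, which read 25.6 and 715 on the loaded control arrays.

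Cyclin D1 (Ccnd1), the cyclin that growth factors and adhesion induce, had 5 probe sets. The brightest, rc_AA957218_at, read 2058 and 1326 on the loaded control arrays, 1554 and 1251 in loaded healing, 1726 and 1872 in unloaded control and 1529.9 and 2092 in unloaded healing. The arrays of loaded healing overlapped those of loaded control and of unloaded healing, and its healing difference in loaded rats was -0.24 (95% interval -0.87 to 0.40). D14014_at read 1224 and 775 in loaded control, 898 and 889 in loaded healing, 706 and 304 in unloaded control and 1506 and 1129 in unloaded healing. Both unloaded control arrays lay below every other array. Unloaded healing was 1.40 ± 0.41 (SE, n = 2 and 2) above unloaded control on the log2 scale, with an adjusted p of 0.0780 by limma. Without the first unloaded control array the difference was 1.95 and its adjusted p 0.0262, in a range of 0.0262 to 0.395 over 19 alternatives, 3 of which called it.

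The companion probe set D14014_g_at read 677 and 682 in loaded control, 917 and 619 in loaded healing, 183 and 135 in unloaded control and 212 and 637 in unloaded healing. The unloaded control arrays were again the lowest. Unloaded control was 1.83 below loaded control in log2 (difference -1.83 ± 0.53, SE), with an adjusted p of 0.0787 by limma; 4 of 19 alternatives called it. The other 3 Ccnd1 probe sets differed by 0.12, -0.02 and -0.02 in that comparison, close to 0, unlike the D14014 pair. rc_AI231257_at read 508 and 552 in loaded control and 546 and 244 in loaded healing, with 475 and 571 and 372 and 580.0 in the unloaded groups. X75207_s_at ran from 260.5 to 746.1 over all arrays, with overlap between every pair of groups.

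Cyclin D2 (Ccnd2) is another D cyclin, with its own pattern of tissues. rc_AA899106_at read 1106 and 183 in loaded control, 424 and 499 in loaded healing, 1027 and 771 in unloaded control and 886 and 805 in unloaded healing. The loaded control arrays differed from each other 6.05-fold, more than any pair of group means did. Unloaded control against loaded control gave 0.87 with an adjusted p of 0.525 by limma. Leaving out the first loaded control array turned this into 2.03 with an adjusted p of 0.0342, in a range of 0.0342 to 0.796 over 19 alternatives, so 1 array decided it. D16308_at read 637 and 139.7, 69.1 and 130.4, 279.7 and 209 and 332 and 144 in the same group order. Both loaded healing arrays lay below every other array; against loaded control the difference was -1.32 ± 0.71 (SE), with an adjusted p of 0.559 by limma.

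Cyclin D3 (Ccnd3) gave the tightest readings of the members. D16309_g_at read 1584 and 1508 in loaded control, 1111 and 1146 in loaded healing, 1903 and 1915 in unloaded control and 1081 and 1077 in unloaded healing. Its arrays within a group differed by at most 1.05-fold, and both healing groups lay below both control groups. Loaded healing was -0.44 ± 0.23 (SE) from loaded control, with an adjusted p of 0.545 by limma. Unloaded healing was -0.80 ± 0.23 from unloaded control, with an adjusted p of 0.0729; the 2 healing groups differed by -0.06 (95% interval -0.58 to 0.46). The small spread was not the error of the test, because limma draws the spread of each probe set toward that of all others. D16309_at, named after the same entry, read 854 and 604, 589 and 377, 522 and 722 and 604 and 954, and the healing differences were -0.56 in loaded and 0.29 in unloaded rats. U49935mRNA_s_at read 283 and 344, 311 and 458, 762 and 518 and 368 and 798; its healing differences were 0.24 and -0.19. The dim probe set U49935mRNA_r_at, not tested, read 174.1 and 273.5, 107.6 and 113.2, 212.8 and 118.3, and 263.1 and 158.2, and its loaded healing arrays were the lowest. The order of the groups for D16309_g_at was therefore not that of the other tested Ccnd3 probe sets.

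Cdk4, the kinase that the D cyclins switch on, had 1 probe set, L11007_at. It read 549 and 636 in loaded control, 558 and 170.1 in loaded healing, 299 and 555 in unloaded control and 548 and 529.5 in unloaded healing. The second loaded healing array was the lowest of the 8. Loaded healing against loaded control gave -0.82 (95% interval -2.04 to 0.40), and -0.08 without that array.

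The inhibitor Cdkn1a, a target of p53, had 1 tested probe set, U24174_at. It read 529.5 and 483 in loaded control, 331 and 269.8 in loaded healing, 604 and 502 in unloaded control and 870.5 and 309 in unloaded healing. Loaded healing lay below both control groups without overlap, while the 2 unloaded healing arrays spanned nearly the whole range. The injury difference was -0.68 ± 0.50 (SE) and that of unloaded against loaded healing 0.73 ± 0.50, with adjusted p-values of 0.718 and 0.677 by limma. The dim Cdkn1a probe set L41275cds_s_at, not tested, read 109 and 184, 97.2 and 68.5, 342 and 196 and 165 and 174. Here both loaded healing arrays were the lowest, which they were not for U24174_at. The mean of this dim probe set was under the filter, a signal of 190.6. Cdkn1b, which holds resting cells out of the cycle, read 13.6 and 18.6 in loaded control, 23.7 and 116 in loaded healing, 31.4 and 29.7 in unloaded control and 13.9 and 17.4 in unloaded healing. These signals were among the lowest on the array, at percentile 1.18, and give no usable level of the gene.

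Pcna, the replication clamp, had a pair of probe sets named after 1 sequence entry. M24604_at read 25.6 and 715 in loaded control, 371 and 616 in loaded healing, 59.2 and 72 in unloaded control and 87.9 and 449.8 in unloaded healing. The 2 loaded control arrays differed 27.9-fold, the widest gap within a group among the tested members. M24604_g_at read 385 and 474, 415 and 144, 829 and 296 and 166 and 280.1. The pair gave opposite injury differences, 1.17 ± 1.03 and -0.68 ± 0.63 (SE). No direction for Pcna could be read from these arrays.

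Top2a, which is made mostly in cells between S phase and mitosis, had 3 probe sets. rc_AA899854_at read 523 and 964 in loaded control, 706 and 673 in loaded healing, 800.5 and 874 in unloaded control and 776 and 589 in unloaded healing. Z19552cds_at read 672 and 482, 546 and 396, 876 and 213 and 689 and 669.8 in that order, and D14045_s_at read 75 and 464, 88 and 119, 414 and 656 and 53.1 and 335. In loaded rats the injury differences were -0.04, -0.27 and -0.74, none past the test. For rc_AA899854_at the 95% interval was -0.87 to 0.78, within 2-fold either way.

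Cdk1, the kinase of mitotic entry, with the probe set X60767mRNA_s_at, read 280.0 and 295 in loaded control, 269 and 346 in loaded healing, 73.5 and 447 in unloaded control and 46 and 162 in unloaded healing. The loaded groups sat close together, and both unloaded healing arrays lay below them. Unloaded healing was -1.35 ± 0.74 (SE) from loaded healing, with a 95% interval of -3.00 to 0.30 and an adjusted p of 0.577 by limma. The unloaded control arrays differed 6.09-fold and spanned both loaded groups. Cyclin B1 (Ccnb1), the partner of Cdk1, read 1328 and 359, 1231 and 572, 773 and 1404 and 565 and 767 with X64589_at. Its arrays overlapped between loaded control, loaded healing and unloaded healing. The dim Ccnb1 probe set, rc_AA998164_s_at, read 113 and 347, 22.8 and 214, 113 and 338 and 209 and 194 and was not tested.

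The promoters of Top2a and Cdk1 are shown because both are textbook targets of the complexes that switch mitotic genes on late in the cycle. That of Ccnb1, the other mitotic member, is not shown. Cdk1 read lower in unloaded than in loaded healing, and the Top2a probe sets did not share a direction there. None of these differences was called, and no link between them and the promoters was tested. The sequences are from RefSeq on build GRCr8, 250 bases before to 50 after the start, 5′ to 3′ on the gene's strand: Top2a at chr10:84473044-84473343 on the minus strand and Cdk1 at chr20:19265043-19265342 on the plus strand. Capitals mark exact matches, on either strand, to the 4 motifs named under the sequences that were found here, and no match overlapped another.
Top2a: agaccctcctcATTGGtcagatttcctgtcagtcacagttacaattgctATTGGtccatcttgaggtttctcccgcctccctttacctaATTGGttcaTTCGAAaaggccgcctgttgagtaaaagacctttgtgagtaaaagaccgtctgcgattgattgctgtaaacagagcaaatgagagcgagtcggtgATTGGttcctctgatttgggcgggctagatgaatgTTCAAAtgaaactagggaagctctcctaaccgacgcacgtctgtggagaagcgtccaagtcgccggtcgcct
Cdk1: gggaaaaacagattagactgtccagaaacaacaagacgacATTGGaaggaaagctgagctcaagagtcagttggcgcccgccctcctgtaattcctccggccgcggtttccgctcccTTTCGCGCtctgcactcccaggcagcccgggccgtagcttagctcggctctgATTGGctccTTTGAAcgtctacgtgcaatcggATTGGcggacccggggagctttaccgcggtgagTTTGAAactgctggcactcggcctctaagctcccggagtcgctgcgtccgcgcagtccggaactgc
CCAAT, the box bound by NF-Y, was in 6 of the 8 member promoters in the table and in 37.5% of all 33469. TTTGAA, a form of the cell cycle homology region, was in 2 of the 8 and in 18.3% of all. Its other form TTCGAA was in 1 of the 8 and in 1.69% of all. CCAAT together with either of them was in 2 of 8, Top2a and Cdk1, the 2 shown, and in 7.95% of all promoters. The Ccnb1 promoter had 2 CCAAT matches and 0 of either form. TTTCGCGC, an E2F-type motif, was in 1 of 8 and in 0.326% of all, while its variant TTTGGCGC was in 0 of 8 and 0.493% of all. The further variant TTTCCCGC was in 0 of 8 and 0.974% of all. A match is a description of these letters, not a binding site.

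Unloading during healing was read from unloaded against loaded healing, the comparison whose differences involve no control array. The error of its test was still shared with the control groups. It called 0 of the 19 member probe sets, where 1.62% of all probe sets passed, with 0 of 19 and 574 of 5244 at an unadjusted p under 0.05. The smallest adjusted p of a member was 0.577 by limma, for Cdk1. The median member difference was 0.35, beside 0.06 over all, with 11 higher and 8 lower; with spike-in scaling, which moved the median of all by -0.46, the split was 9 and 10. The arrays did not overlap for 7 of the 19, 5 higher and 2 lower in unloaded healing, where 39.7% of all probe sets did not overlap. The 5 higher were Ccnd1 D14014_at (0.52), both Ccnd2 probe sets (0.91 and 0.82), Ccnd3 D16309_at (0.64) and Top2a Z19552cds_at (0.50), and the 2 lower were Cdk1 (-1.35) and Ccnd3 D16309_g_at (-0.06). The other D14014 probe set of Ccnd1, D14014_g_at, was at -0.93 with overlap. Of the 4 untested probe sets, Ccnd3 U49935mRNA_r_at (0.68) and Cdkn1a L41275cds_s_at (0.75) were also higher without overlap, and that of Cdkn1b was lower at signals near background.

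**Figure D2:**
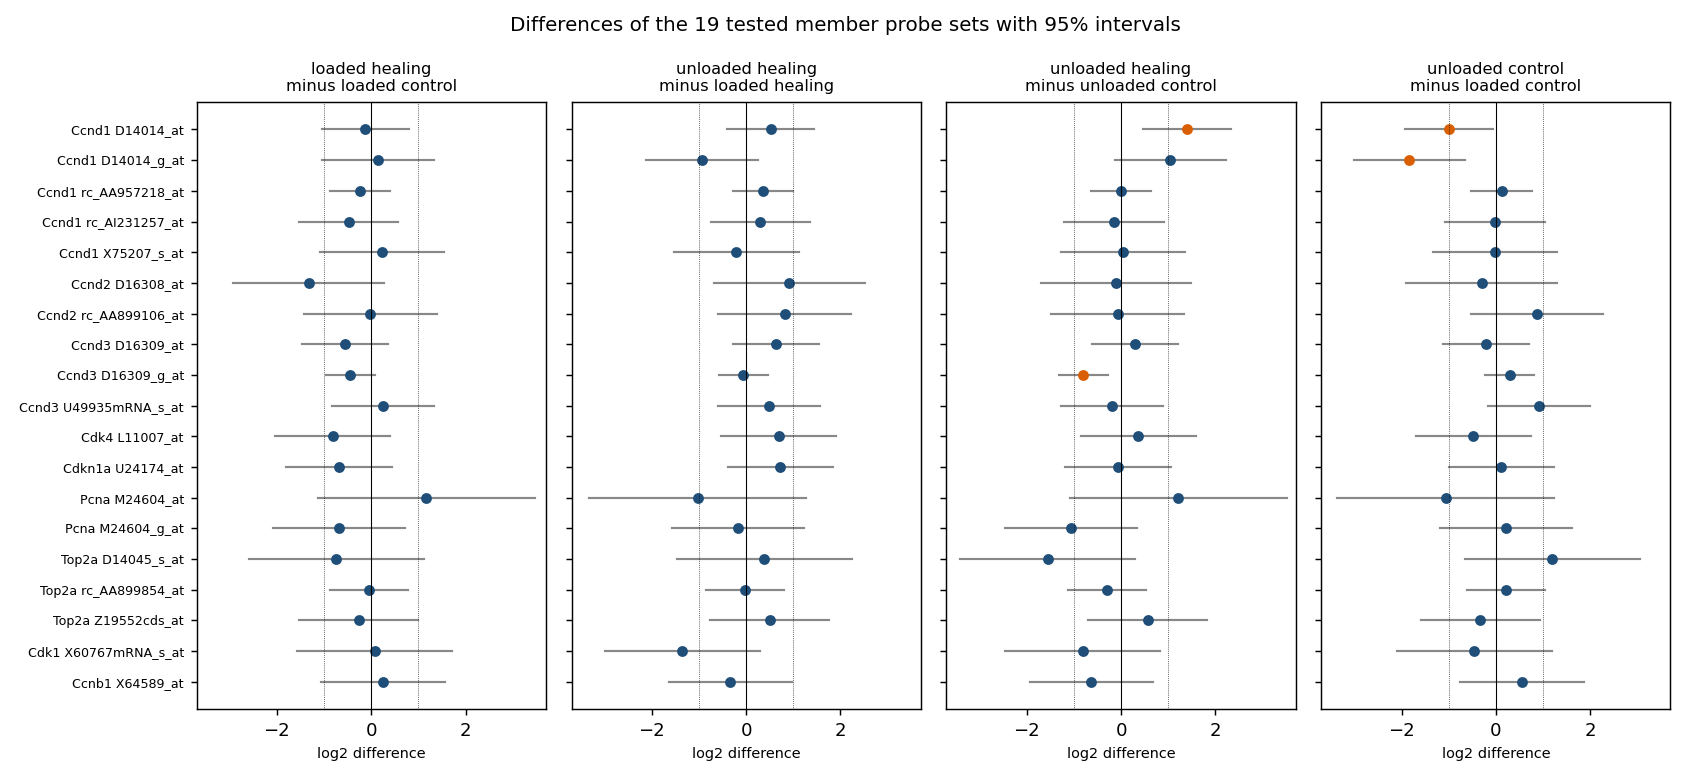
Log2 difference (x axis) of the 19 tested member probe sets in 4 comparisons between groups, with 95% intervals from limma. Orange marks an unadjusted p under 0.05 and dotted lines a 2-fold difference; 0 probe sets are orange in the first 2 comparisons and 2 in each of the others, and most intervals cross 1 or both dotted lines.

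Healing in unloaded rats, unloaded healing against unloaded control, called 0 of 19 members, where 7.46% of all probe sets passed; at an unadjusted p under 0.05 it had 2 of 19 and 1004 of 5244. These 2 were Ccnd1 D14014_at and Ccnd3 D16309_g_at, with the values given above. Unloaded against loaded control called 0 of 19, where 6.81% passed, with 2 of 19 and 932 of 5244 at an unadjusted p under 0.05; both were the D14014 probe sets of Ccnd1. Unloaded healing against loaded control called 0 of 19, where 0.0763% passed, with 0 of 19 and 291 of 5244 at that level. The interaction, whether the healing difference changed with unloading, called 0 of 19, where 4.84% passed, with 1 of 19 and 678 of 5244 unadjusted. That 1 was Ccnd1 D14014_at at 1.52 ± 0.58 (SE), with an adjusted p of 0.288 by limma. Of these comparisons, 3 involve the unloaded control arrays with their low fibroblast marker sum, whose part in the member values was not tested.

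Arrays of the compared groups overlapped for most members. In loaded healing against loaded control, 4 of 19 member probe sets had arrays that did not overlap, all lower in healing, where 39.7% of all probe sets did not overlap. The 4 were Ccnd2 D16308_at, Ccnd3 D16309_at and D16309_g_at, and Cdkn1a U24174_at. The share over all, 2083 probe sets, was the same in unloaded against loaded healing. In unloaded healing against unloaded control 8 of 19 did not overlap, where 52.2% of all did not, and in unloaded against loaded control 4 of 19, where 51.1% did not. In unloaded healing against loaded control it was 6 of 19, where 32.3% did not. The member shares were 31.6% in that last comparison and 36.8% in unloaded against loaded healing, each near the share of all probe sets, and 21.1% to 42.1% over the 5 comparisons, which share arrays.

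The median SD of the members within groups was 0.60 in log2, beside 0.45 over all tested probe sets, and the median SD between the 4 group means was 0.38, beside 0.43. The spread between groups exceeded that within groups for 3 of 19 members, or 15.8%, and for 43.6% of all tested probe sets.

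**Figure D3:**
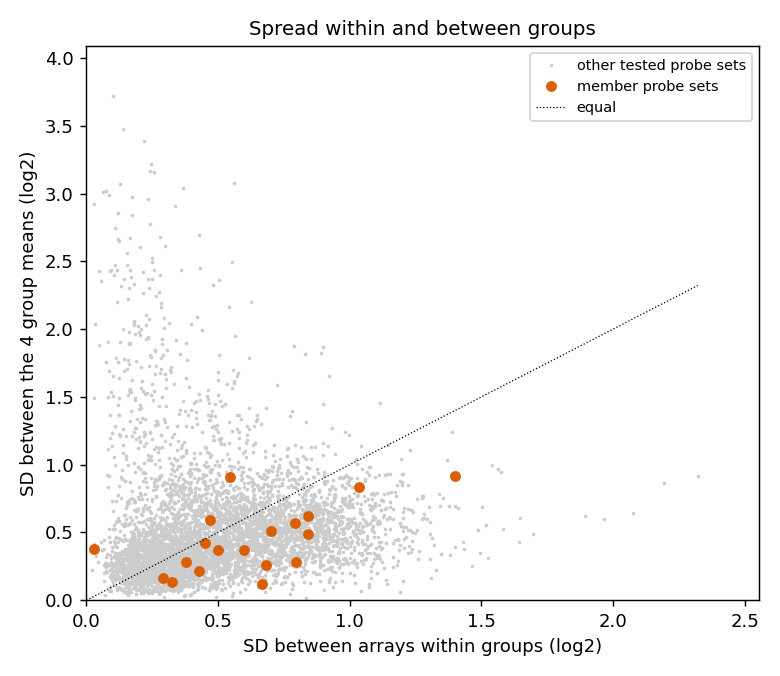
SD between the 4 group means (y axis, log2) against the pooled SD between arrays of a group (x axis, log2) for 19 member probe sets (orange) and the other tested probe sets (grey); the dotted line marks equal spread. Orange points lie above the line for 3 of 19, the probe set of Ccnd3 at the far left and both D14014 probe sets of Ccnd1.

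The precision differed by gene. For 3 of 19 members the 95% interval of the injury difference lay within 2-fold either way: Ccnd1 rc_AA957218_at, Ccnd3 D16309_g_at and Top2a rc_AA899854_at. The same 3 did so for unloaded against loaded healing. In the injury comparison 14 of 19 intervals lay within 4-fold, and 11 of 19 lay below a 2-fold rise, while the other 8 reached a 2-fold rise or more. Only 4 of 19 lay above a 2-fold fall, and the rest reached a 2-fold fall or more. In bulk ligament a lower share of dividing cells and less of a transcript per cell cannot be told apart.

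Probe sets of 1 gene often gave both directions. Over 7 genes with more than 1 probe set and 5 comparisons between groups, all probe sets of a gene pointed the same way in 11 of 35 cases and both ways in 24. These counts include the dim, untested probe sets of Ccnd3, Cdkn1a and Ccnb1. The share among other genes with several probe sets was not counted, so this is not read as a trait of the members. In the injury comparison 3 of the 7 genes had 1 direction, which was lower in loaded healing: Ccnd2, Cdkn1a and Top2a, none past the test.

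The other cell cycle genes on the array showed no calls either. Of 128 genes in 5 lists, 51 were on the array with 75 probe sets, and 41 probe sets of 37 genes were tested: 3 of G1 and S phase cyclins and kinases, 10 of inhibitors, pocket proteins and the p53 pathway, 4 of transcription factors, 15 of DNA replication and 9 of mitosis. In each of the 6 comparisons 0 of 41 were called in either direction. At an unadjusted p under 0.05 there were 6 of 41 in the injury comparison, 3 in unloaded against loaded healing, 4 in unloaded healing against its control, 2 in each of the other pairs and 3 in the interaction. The median over the 5 lists was 0.01 for injury and 0.10 for unloading during healing, beside -0.03 and 0.06 over all probe sets. Ccne1, the cyclin that follows the D cyclins, was -0.82 ± 0.31 (SE) in loaded healing against loaded control, with an adjusted p of 0.311 by limma. Its other tested probe set, D14015_g_at, read 802 and 829 in loaded control and 266 and 433 in loaded healing. These and Cdc25b D16237_at were the 3 tested of the G1 and S phase list. In loaded healing against loaded control all 3, which stand for 2 genes, were lower without overlap, with a median of -0.85. Each had an unadjusted p under 0.05 by limma, and none was called. Of all tested probe sets 39.7% did not overlap there, and 11.7% had such a p. Over the 5 lists 18 of 41 did not overlap, and the DNA replication list had a median of 0.19. Mdm2, which p53 induces together with Cdkn1a, was -0.82 there and 0.68 in unloaded against loaded healing with AA108308_s_at, the only 1 of its 4 probe sets bright enough to test, with adjusted p-values of 0.357 and 0.534. Dimmer Mdm2 probe sets read the other way with injury: rc_AI639488_at was 49.7 and 121.4 in loaded control and 324.3 and 297.3 in loaded healing, and AA875509_at 64.6 and 81.8 against 218.8 and 121.5. Fen1, which trims Okazaki fragments, was -1.08 ± 0.32 in unloaded healing against unloaded control, with an adjusted p of 0.0801. Foxm1, a factor of mitotic genes, was -0.28 with injury and 0.36 with unloading during healing, and Hmgb1, an abundant chromatin protein, 0.15 and 0.36.

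Markers of other cell types varied between the groups. The summed signal of 8 macrophage genes was 23565 and 21244 on the loaded healing arrays, against 4721 to 6825 on the other 6. Lyz2 and Lgals3 carried this: Lyz2 read 2144 and 1392 in loaded control and 16260.4 and 13978 in loaded healing. Without these 2 genes, a sum chosen after the data were seen, it was 2679 and 3482 in loaded control and 3279 and 3048 in loaded healing. Csf1r, a defining macrophage receptor, read 99.8 and 95.2 in loaded control and 64.5 and 74 in loaded healing. It was below the filter, at percentile 14.4. Other macrophage markers were mixed. Fcgr2b read 21.5 and 241.8 in loaded control and 542.3 and 400.3 in loaded healing. Ptprc K03039mRNA_s_at, also dim, read 16.9 and 14.6 against 522.2 and 542.5. The brightest Ptprc, Cd14, Aif1 and Itgam probe sets overlapped between these groups. The skeletal muscle sum was 9349 and 9279 in loaded control, 18036 and 13545 in loaded healing, 5047 and 4469.9 in unloaded control and 13169.6 and 10671 in unloaded healing. The smooth muscle and myofibroblast sum was 4197 and 4206 in loaded healing, above 2472 to 3404 elsewhere. The endothelial sum was 2462 and 6409 in loaded control, 2765 and 6318 in loaded healing, 6872 and 7684 in unloaded control and 2952 and 6335 in unloaded healing. The gap between arrays of a group was largely that of 1 gene, Kdr: without it, also chosen after the data were seen, the sums were 2331 and 3305, 2508 and 2868, 4225 and 3959.8, and 2707.5 and 2789. The sum over the 23 member probe sets was 14203 and 12107, 11932 and 9713, 13271 and 13273 and 11876 and 13143 in the same order of groups. Both loaded healing sums lay below both loaded control sums, with gaps from 12107 against 11932 to 14203 against 9713. The sum mixes cyclins with inhibitors and counts a gene once for each of its probe sets, tested or not. Of all tested probe sets 39.7% did not overlap in this comparison. The sum is on the deposited scaling. With spike-in scaling the tested members split into 11 higher and 8 lower in loaded healing. The lymphocyte sum ran from 3426 to 5365 and the erythroid sum from 3317 to 9377 over the 8 arrays. The part of any of these cells in the member values was not tested.

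**Figure D4:**
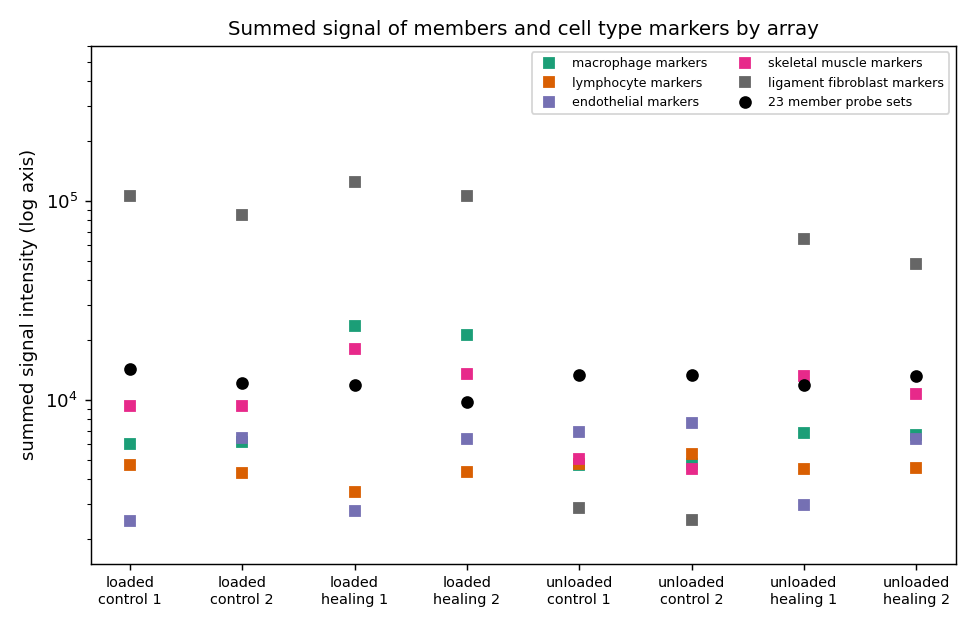
Summed signal (log axis) of 5 marker lists and of the 23 member probe sets on each of the 8 arrays; arrays of a group stand side by side and 1 symbol is 1 list. The member sum stays between 9713 and 14203, while the fibroblast sum is 2500 to 2873 on the unloaded control arrays and 47995 or more elsewhere.

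The probe sets most like the members were found by the root mean square difference of centred log2 values, for the brightest tested probe set of each gene. Over 8 arrays the nearest to Cdk4 were Pttg1 (0.19) and Smc1a (0.21), where Cdk4 itself had an SD of 0.57. The nearest to Ccnd3 were Ins2 (0.12) and Hspb1 (0.13), and to Cdk1 Dlst (0.29) and Myo9b (0.36). Those of Ccnd1 were Aldh3a1 (0.11) and Smarcb1 (0.12), of Ccnd2 Gjb5 (0.20) and Defb1 (0.29), and of Cdkn1a Psap (0.23) and Prp2l1 (0.23). Those of Pcna were Stat6 (0.32) and Ptprn2 (0.33), of Top2a Irgm2 (0.11) and Etfdh (0.11), and of Ccnb1 Pdia2 (0.29) and Ing4 (0.29). Without the 2 unloaded control arrays the nearest to Cdk4 were Plekhm2 (0.11) and Papss2 (0.13), to Ccnd3 Rab11fip5 (0.08) and Myl12b (0.09), and to Cdk1 Ralb (0.07) and Fam162a (0.09). Those of Ccnd1 were then Or2b2 (0.07) and Mms19 (0.10), of Ccnd2 Egr4 (0.20) and Gjb5 (0.21), and of Cdkn1a Chrna4 (0.17) and Psap (0.22). Those of Pcna were Atp13a1 (0.13) and Triobp (0.24), of Top2a Etfdh (0.09) and Gabre (0.10), and of Ccnb1 Fgfbp3 (0.16) and Cyp2b2 (0.22). Gjb5 for Ccnd2, Psap for Cdkn1a and Etfdh for Top2a were among the nearest pair both times. These nearest probe sets are given as a description of 8 or 6 arrays.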

How the data were processed

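Total RNA of rat ligaments was measured on 8 single-colour arrays. The values are signal intensities as deposited, on a linear scale; the values show a common trimmed mean, and the software behind them is not given in the sources used here. Probe sets were named from the platform annotation: 7018 had 1 symbol, 308 several and 1473 none; 23 of 23 member probe sets matched RefSeq (GRCr8), with 0 symbols changed. The 10th percentile of all signals, 45.8, was added before log2, 59 control probe sets were set aside and the lowest 40% by mean removed. The remaining 5244 were tested two-sided with limma 3.58.1 in R 4.3.3: 1 mean per group, an intensity trend, Benjamini-Hochberg adjustment, 4 residual degrees of freedom. The number of arrays limits the precision. The code was tested on simulated data. Every member probe set is named; of the other lists, any called probe set and the brightest measured gene of each; and the 2 most alike probe sets of each member's brightest. Alternatives covered normalization, offset, filter, variance prior, replicate block, samples fitted and each array left out. The members, gene lists and marker lists were chosen with earlier results of these data known.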

Additional observations from a re-analysis of the deposited data

Results flagged for a closer look

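Unloading read in opposite directions in healing and in control ligaments for 2 tested member probe sets, with both arrays of 1 group above or below those of the other each time. Ccnd1 D14014_at was 0.52 higher in unloaded than loaded healing and -0.99 in unloaded against loaded control, a difference of 1.52 with an adjusted p of 0.288 by limma. Ccnd3 D16309_g_at was -0.06 and 0.30, a difference of -0.36 with an adjusted p of 0.732. The untested Cdkn1b probe set D83792_at met the same condition for unloading (-0.79 and 0.30) and for healing (0.78 in loaded and -0.31 in unloaded rats), a difference of -1.09 both times. Its signals, 13.6 to 31.4 apart from 1 loaded healing array at 115.8, give no usable level, and no direction is read from them. With 2 arrays a group, arrays that do not overlap are common on this array, as the shares of 32.3% to 52.2% over all probe sets show.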

How the results depend on the processing

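The count of member probe sets called was 0 in all settings run for 4 comparisons: loaded healing against loaded control, unloaded against loaded healing, unloaded healing against loaded control, and the interaction. The smallest adjusted p there, by limma, ranged over 0.282 to 0.623, 0.291 to 0.630, 0.420 to 0.998 and 0.0869 to 0.638. In unloaded healing against unloaded control, quantile normalization called 2 members, Ccnd1 D14014_at and Ccnd3 D16309_g_at (adjusted p 0.0404 and 0.0190), and leaving out 1 array called 0 to 1. In unloaded against loaded control, quantile normalization and median centring each called 1, Ccnd1 D14014_g_at (adjusted p 0.0261 and 0.0358), and leaving out 1 array called 0 to 1. That 1 was Ccnd2 rc_AA899106_at without the first loaded control array (adjusted p 0.0342), and Ccnd1 D14014_g_at without either unloaded healing array (0.0314 and 0.0395). For D14014_g_at the difference stayed at -1.83 without either unloaded healing array, a group outside that comparison. All groups share the error of the test, so arrays outside a comparison enter its p-value. Why the other settings called members was not tested. The replicate numbers were not taken as pairs, since no label ties them: correlations of the deviations were all positive, 0.000779 to 0.204, but only 3 of 6 were over 0.1. The replicate block called 1 member, Ccnd1 D14014_at in unloaded healing against unloaded control (adjusted p 0.0338), and 0 in the other comparisons. Of 2174 member values recomputed, 142 changed sign, none of them called. Over all probe sets the calls were 106 in the injury comparison, 27 to 124 over the settings, and 85 for unloading during healing, 16 to 137. They were 391 in unloaded healing against its control (309 to 627), 357 between the controls (282 to 594), 4 in unloaded healing against loaded control (0 to 7) and 254 in the interaction (215 to 328). Median centring moved the median of all probe sets by 0.20 in unloaded healing against its control, with 13 members higher and 6 lower, and by -0.24 between the controls, with 5 higher and 14 lower. Fits of the compared groups alone have no value for the interaction, and fits without the unloaded control arrays none for the comparisons that use them. Signals near background limit what Cdkn1b and the other dim probe sets can show.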

Other observations

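Kdr U93306_at, an endothelial receptor named here after its values were seen, read 130.9 and 3105 in loaded control, 256.9 and 3450.2 in loaded healing, 2647 and 3724 in unloaded control, and 244.7 and 3546 in unloaded healing. The first array of 3 groups was low and the second high, a split between arrays of a group that no label describes. Pcna M24604_at, Top2a D14045_s_at and Cdk1 X60767mRNA_s_at were lower on the first array of all 4 groups. Ccnd1 D14014_at, Cdkn1a U24174_at and Top2a Z19552cds_at were higher on the first array of all 4. The share of all probe sets that did so was not counted.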
